A study of Mus musculus with 15 samples.

Results

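The transcripts of 10 cytokine and chemokine genes, which encode signals that immune cells send each other, were followed in mouse leukemia spleen cells. The genes are Il10, Tgfb1, Il15, Tnf, Lta, Ltb, Ccl3, Ccl4, Ccl22 and Cxcl10, and they were chosen by name, with earlier results of these data known. All of them were listed both in the table of vehicle libraries, which holds 16470 genes, and in the table of ibrutinib libraries, which holds 16428. The choice by name means that the genotype tests given for them are descriptions and not independent evidence.

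The cells came from the spleens of leukemic C57Bl/6 mice that carry the Eμ-TCL1 transgene, in which an immunoglobulin heavy-chain enhancer drives the human oncogene TCL1 in B-cells. This transgene was shared by every mouse, and it gives a disease used as a model of chronic lymphocytic leukemia (CLL). One genotype carried the transgene alone (Eμ-TCL1), and the other, Eμ-TCL1;p53R172H/+, also carried one Trp53 allele with the R172H point mutation in all of its cells and is called p53-mutant here. Cells were cultured for 24 h with the solvent DMSO or with ibrutinib, a covalent inhibitor of Bruton's tyrosine kinase (BTK), at 5 μM. RNA was sequenced from 3 Eμ-TCL1 and 5 p53-mutant libraries in DMSO and from 3 Eμ-TCL1 and 4 p53-mutant libraries in ibrutinib, 15 in all. The age of these mice is not given in the sources used here. The cells were separated by mechanical disruption of the spleen, with no sort for B-cells described.

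Cytokines are small secreted or membrane-bound proteins that act through receptors on the same or neighboring cells, and chemokines are the subset that attracts cells along a gradient. B-cells make interleukin-10 and lymphotoxin, and in CLL the B-cell receptor, which signals through BTK, is known to drive release of the chemokines CCL3 and CCL4, which draw T-cells and monocytes to the leukemia. T-cells, NK cells and myeloid cells make many of the same molecules, so a level in spleen RNA has several possible sources.

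The label of B-cells was checked first with marker genes, and it did not hold equally in all libraries. The 10 B-cell markers (Ms4a1, Cd79a, Cd79b, Pax5 and others) summed to between 1388 and 6209 units of normalized CPM (read counts scaled to a common library size) in 9 libraries, and to at most 577 in the other 6. The latter were p53-mutant replicates 1 and 2 and Eμ-TCL1 replicate 2 in DMSO, with p53-mutant replicates 1 and 3 and Eμ-TCL1 replicate 1 in ibrutinib. Eμ-TCL1 replicate 2 in DMSO and replicate 1 in ibrutinib were instead high in 10 neutrophil markers (30211 and 23949, against 7.80 to 1310 elsewhere), in 13 measured monocyte and macrophage markers (9337 and 6783, against 95.6 to 593) and in 6 measured erythroid markers (17255 and 14977, against 9 to 256). The 13 T-cell markers summed to 2888 and 3593 in p53-mutant replicates 1 and 2 in DMSO, to 1938 and 1315 in p53-mutant replicates 1 and 3 in ibrutinib, and to between 202 and 913 elsewhere. The 8 NK-cell markers summed to 545 and 696 in the first of these pairs, to 270 in p53-mutant replicate 1 in ibrutinib and to at most 86.2 elsewhere, while Ncr1, which defines NK cells, was listed at 0 in all 3 of these libraries. The marker sums of the 7 dendritic-cell genes reached 102 and 75.9 in the libraries with neutrophil markers and at most 37.6 elsewhere, and those of 5 measured plasma-cell genes ranged from 78.1 to 1490. In bulk RNA, fewer cells of a type and less RNA per cell cannot be told apart, and the levels given are those of whole libraries and not of leukemia cells alone. Libraries with few B-cell transcripts were therefore left out in a repeat of each comparison, with a minimum of 1000 for the B-cell sum that was set after the values were seen.

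**Figure D1:**
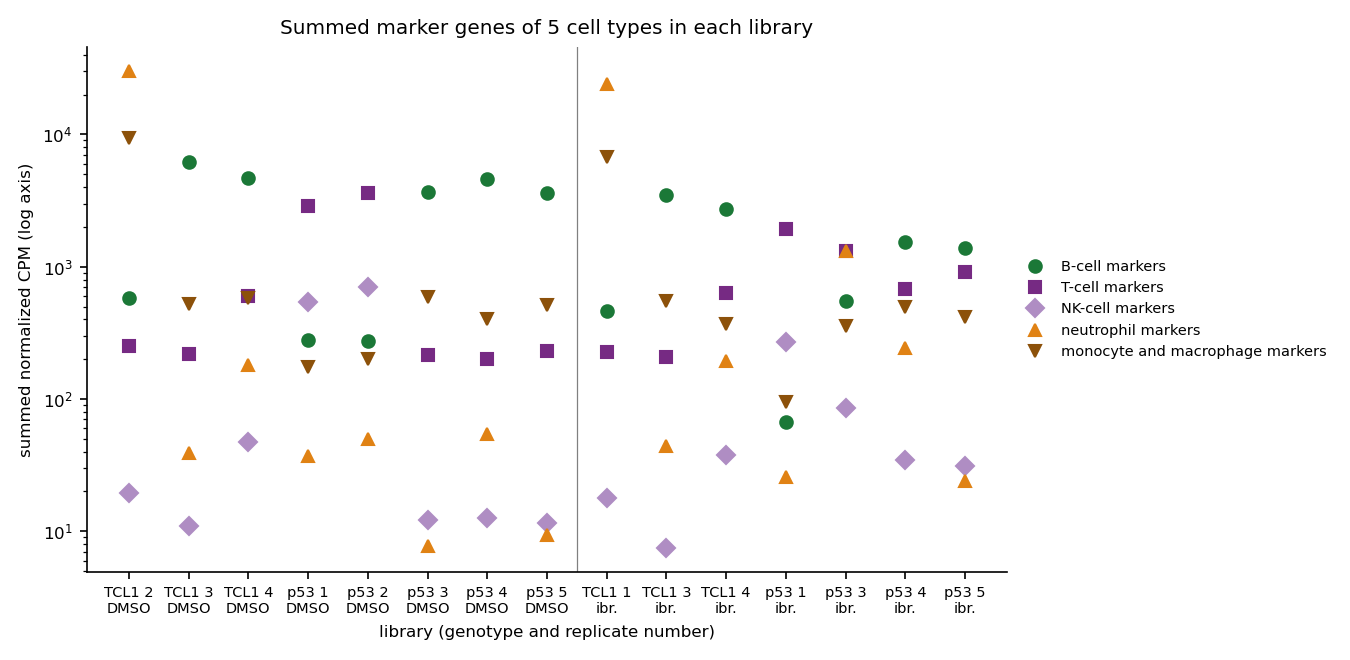
Summed normalized CPM (log axis) of the marker genes of 5 cell types in each of the 15 libraries, named by genotype (TCL1 for Eμ-TCL1, p53 for p53-mutant) and replicate number, with ibr. for ibrutinib. The B-cell sum, in green, lies at or under 577 in 6 libraries, where T-cell or neutrophil and monocyte sums exceed it, and at 1388 or more in the other 9.

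Further features of the libraries bear on the comparisons. Some libraries had the same leading immunoglobulin heavy-chain variable genes. They were p53-mutant replicates 1 and 2 in DMSO (Ighv11-2) and p53-mutant replicates 3 and 5 in DMSO (Ighv6-3). Another case was Eμ-TCL1 replicate 2 in DMSO with replicate 1 in ibrutinib (Ighv9-3). Eμ-TCL1 replicates 3 and 4, the only libraries of that genotype rich in B-cell transcripts, shared the first gene, Ighv1-55, in both tables. Replicate 3 also held Ighv5-9-1, at 10.8% of the summed variable genes in DMSO and 12.5% in ibrutinib. In replicate 4 Ighv1-55 made up 99.3% and 99.5%. Whether such libraries share a mouse is not given, and where separate mice are not stated the p-values measure only the spread between these libraries. The RNA Xist, made in female cells, was 838 or more in all 6 Eμ-TCL1 libraries and in 3 of the 9 p53-mutant libraries, and at most 1.2 in the others. In p53-mutant replicate 3 it was 1491 in DMSO and 1.0 in ibrutinib, with Ighv6-3 and Ighv1-52 as the leading heavy-chain genes. A shared replicate number therefore need not mean a shared mouse. Trp53 was 26.0 to 52.3 in Eμ-TCL1 and 52.1 to 67.0 in p53-mutant libraries in DMSO, which does not check the genotype, since a point mutation need not change the level.

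Across the 10 genes, p53-mutant and Eμ-TCL1 libraries were compared with limma on log2(value + 1) within each table, with Benjamini-Hochberg adjustment over all genes, and every log2 change is given as p53-mutant minus Eμ-TCL1. In DMSO none of the 10 passed the adjusted threshold of 0.05 (0.0121% of all genes did) and 1 of 10, Il15, had an unadjusted p under 0.05 (8.17% of all genes). Il15 was also the 1 gene whose groups did not overlap, with the p53-mutant libraries lower (6.45% of all genes did not overlap, 2.93% in this direction). The median log2 change of the 10 was -0.21 against 0.04 over all genes. In ibrutinib again none passed (0.0% of all genes) and 1 of 10, Il15, had an unadjusted p under 0.05 (12.0% of all genes, 6.32% with p53-mutant lower) and groups that did not overlap, with the p53-mutant libraries lower (12.7% of all genes, 5.97% in this direction). The median was -0.06, against -0.05 over all genes. For the interaction of genotype and treatment, fitted over all 15 libraries as if they were independent, none of the 10 passed either threshold (0.0% and 0.523% of 15869 genes).

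**Figure D2:**
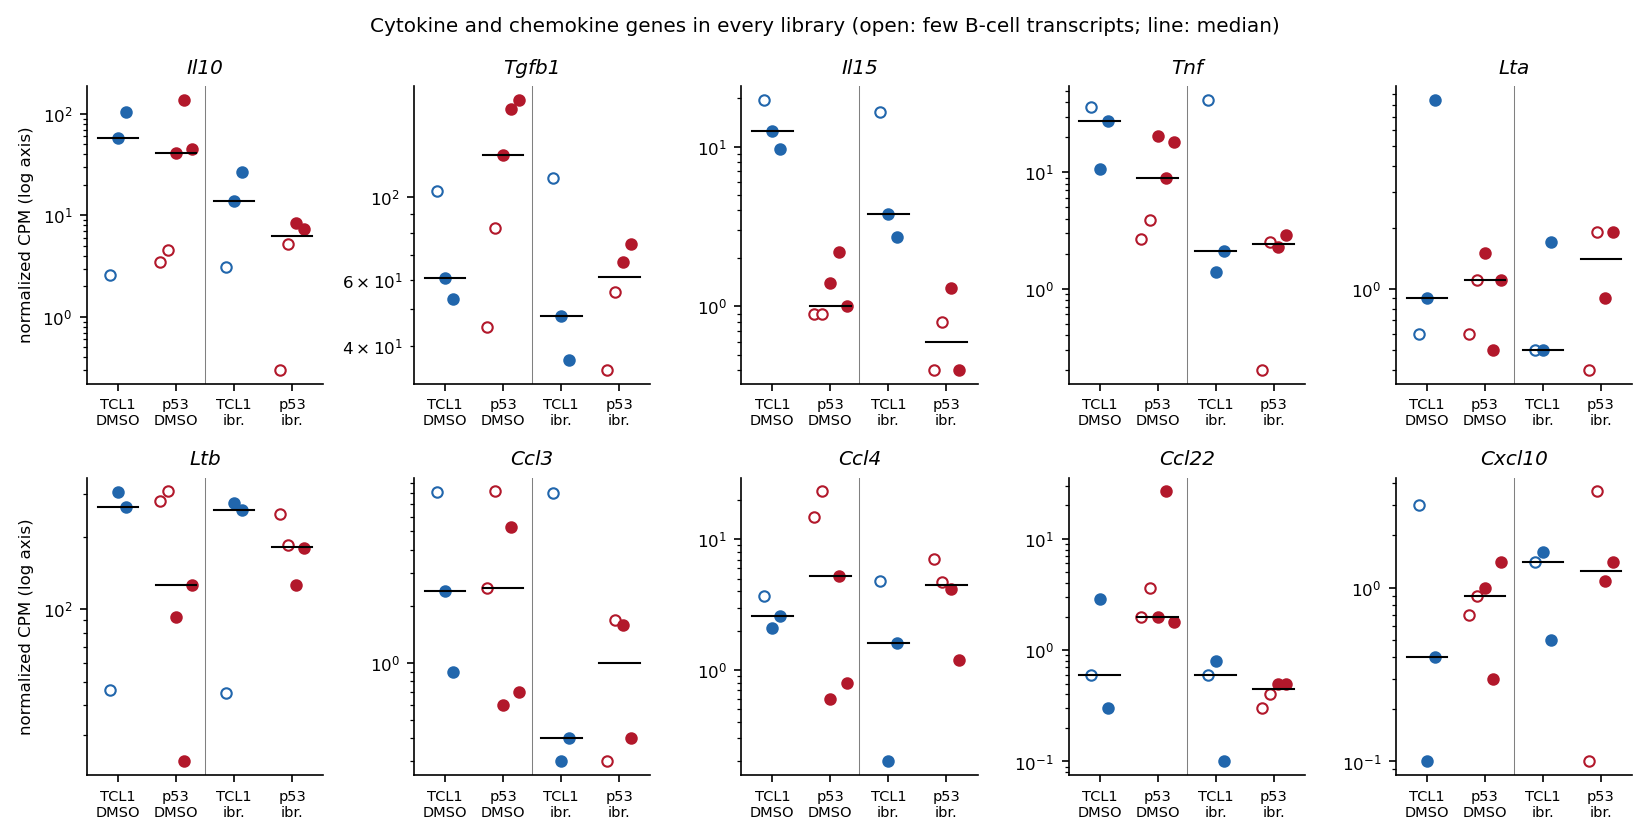
Normalized CPM (log axis, a separate scale for each gene) of the 10 genes in every library, by genotype (TCL1 for Eμ-TCL1, p53 for p53-mutant) and treatment (ibr. for ibrutinib), with open points for the 6 libraries with few B-cell transcripts and lines at group medians. The vertical line separates the 2 tables, which were scaled separately. Il15 is the gene whose genotypes do not overlap in either table.

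Il15 (ENSMUSG00000031712, chromosome 8 of GRCm38 from 82331632 to 82403222, minus strand) encodes interleukin-15, which sustains NK cells and memory CD8 T-cells and is presented to them on the alpha chain of its receptor by the cell that makes it. In DMSO its value was 19.7, 12.6 and 9.6 in Eμ-TCL1 replicates 2, 3 and 4. In the p53-mutant libraries it was 0.9, 0.9, 1.4, 2.2 and 1.0 in replicates 1 to 5. Every p53-mutant library lay below every Eμ-TCL1 library, with a gap between 2.2 and 9.6. The means were 14.0 ± 5.19 (SD, n = 3) and 1.28 ± 0.554 (SD, n = 5), and the log2 change was -2.69 (SE 0.33), with an unadjusted limma p of 2.75e-05 that ranked 6 among the 16470 genes and an adjusted p of 0.0633. In ibrutinib the Eμ-TCL1 values were 16.4, 3.8 and 2.7 in replicates 1, 3 and 4. The p53-mutant values were 0.4, 0.8, 1.3 and 0.4 in replicates 1, 3, 4 and 5. The order of the genotypes was the same as in DMSO, with a smaller gap, and the log2 change was -2.0 (SE 0.54, limma adjusted p = 0.269). These sizes depend on the pseudocount, since the p53-mutant values lie near 1: with 0.1 and 5 in place of 1 the changes were -3.37 and -1.56 in DMSO and -2.91 and -0.99 in ibrutinib. The genotype changes in the 2 tables differed by 0.69 (SE 0.63, limma adjusted p = 1 for the interaction).

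The highest Il15 value in each table was in the Eμ-TCL1 library with high neutrophil, monocyte and erythroid markers. Among the libraries rich in B-cell transcripts, Il15 was 9.6 and 12.6 in Eμ-TCL1 and 1.0 to 2.2 in p53-mutant libraries in DMSO, so the genotypes still did not overlap. Their monocyte and macrophage sums were 527 and 579 in Eμ-TCL1 and 402 to 593 in p53-mutant libraries. A single marker, Lyz2, varied more, at 28.2 and 60.2 in Eμ-TCL1 and 24.4 to 116 in p53-mutant libraries. The part of monocytes and macrophages in the Il15 levels was not tested. The log2 change in DMSO was -2.27 (SE 0.29, limma adjusted p = 0.0879) in these libraries and -1.23 (SE 0.34, limma adjusted p = 0.317) in the same kind of libraries in ibrutinib. A ratio to the B-cell marker Cd79b was added after the values were seen. In these DMSO libraries Il15 was 0.904% and 0.825% of Cd79b in Eμ-TCL1 and 0.127% to 0.364% in p53-mutant libraries. In ibrutinib it was 0.512% and 0.323% against 0.374% and 0.120%, so the genotypes overlapped. Over all libraries the ratios overlapped in both tables. Leaving out only Eμ-TCL1 replicate 2 in DMSO gave -2.43 with a limma adjusted p of 0.0304, which passed the threshold. The p53-mutant DMSO libraries that expressed Xist, replicates 3 and 5, had Il15 values of 1.4 and 1.0, within the range of those without it (0.9 to 2.2). These replicates share the leading Ighv6-3, and whether they are separate mice is not given. Every Eμ-TCL1 library expressed Xist, so no male library of that genotype could be compared. The part of sex in the Il15 difference was not tested.

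The receptor chains of interleukin-15 were read beside it. Il15ra, the chain that presents the cytokine, ranged from 7.9 to 30.1 in DMSO and from 8.9 to 21.6 in ibrutinib, and Il2rb, the signaling chain found on T-cells and NK cells, from 10.8 to 886 and from 12.4 to 529. Both were highest in p53-mutant replicates 1 and 2 in DMSO and replicate 1 in ibrutinib, the libraries with the highest T-cell marker sums. Neither passed the adjusted threshold between genotypes in a table.

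Il10 (ENSMUSG00000016529, chromosome 1 of GRCm38 from 131019845 to 131024974, plus strand) encodes interleukin-10, which dampens antigen presentation and T-cell help and is a known product of regulatory B-cells and of the B-cells of Eμ-TCL1 mice. In DMSO it was 2.6, 57.9 and 104.9 in Eμ-TCL1 replicates 2, 3 and 4. It was 3.5, 4.6, 40.8, 138.7 and 44.7 in p53-mutant replicates 1 to 5. The genotypes overlapped over nearly their whole range, and the 3 lowest values were those of the 3 libraries with few B-cell transcripts. The log2 change was -0.28 (SE 1.43, limma adjusted p = 0.955). In ibrutinib Il10 was 3.1, 13.9 and 26.8 in Eμ-TCL1 replicates 1, 3 and 4. It was 0.3, 5.2, 8.5 and 7.4 in p53-mutant replicates 1, 3, 4 and 5. The log2 change was -1.24 (SE 0.88, limma adjusted p = 0.573), and among libraries rich in B-cell transcripts the p53-mutant values (7.4 and 8.5) lay below the Eμ-TCL1 values (13.9 and 26.8).

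Il10 was lowest where B-cell transcripts were few, and it was therefore also read as a percentage of Cd79b, a subunit of the B-cell receptor, within each library, a step added after the values were seen. The ratio compares values as scaled, not per transcript length, and it does not depend on the scaling of a table. In DMSO the 3 libraries with few B-cell transcripts had Il10 at 2.70% to 8.93% of Cd79b, within or close to the 4.16% to 23.0% of the 5 libraries rich in them. Il10 itself differed far more, at 2.6 to 4.6 against 40.8 to 138.7. The highest ratio belonged to p53-mutant replicate 4, which also had the highest sum of plasma-cell markers (1490). In ibrutinib the ratios of the libraries rich in B-cell transcripts were 1.87% and 3.21% in Eμ-TCL1 and 2.44% and 2.22% in p53-mutant libraries. By this ratio the genotypes overlapped there, unlike the Il10 values themselves.

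Tgfb1 (ENSMUSG00000002603, chromosome 7 of GRCm38 from 25687002 to 25705077, plus strand) encodes transforming growth factor beta 1, made by most blood cells and released in a latent form that restrains lymphocyte growth once activated. In DMSO it was 103.6, 60.7 and 53.3 in Eμ-TCL1 replicates 2, 3 and 4. It was 44.8, 82.7, 129.7, 172.6 and 182.8 in p53-mutant replicates 1 to 5. The genotypes overlapped, with the 3 highest values in p53-mutant libraries rich in B-cell transcripts, and the log2 change was 0.64 (SE 0.48, limma adjusted p = 0.661). In those libraries alone the p53-mutant values (129.7 to 182.8) lay above the Eμ-TCL1 values (53.3 and 60.7), with a log2 change of 1.48 (SE 0.20, limma adjusted p = 0.0879). In ibrutinib Tgfb1 was 112.5, 48.1 and 36.6 in Eμ-TCL1 replicates 1, 3 and 4. It was 34.4, 55.6, 66.9 and 74.8 in p53-mutant replicates 1, 3, 4 and 5. The highest value in ibrutinib was in the Eμ-TCL1 library with neutrophil and monocyte markers. The log2 change was -0.07 (SE 0.43, limma adjusted p = 0.953), and 0.74 (SE 0.20, limma adjusted p = 0.310) in the libraries rich in B-cell transcripts. Sample quality weights, an option of limma that gives less weight to libraries far from their group, brought Tgfb1 in DMSO to a log2 change of 1.26 with an adjusted p of 0.0415. The receptor chains Tgfbr1 and Tgfbr2 were present in every library, the latter at 103.5 or more.

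**Figure D3:**
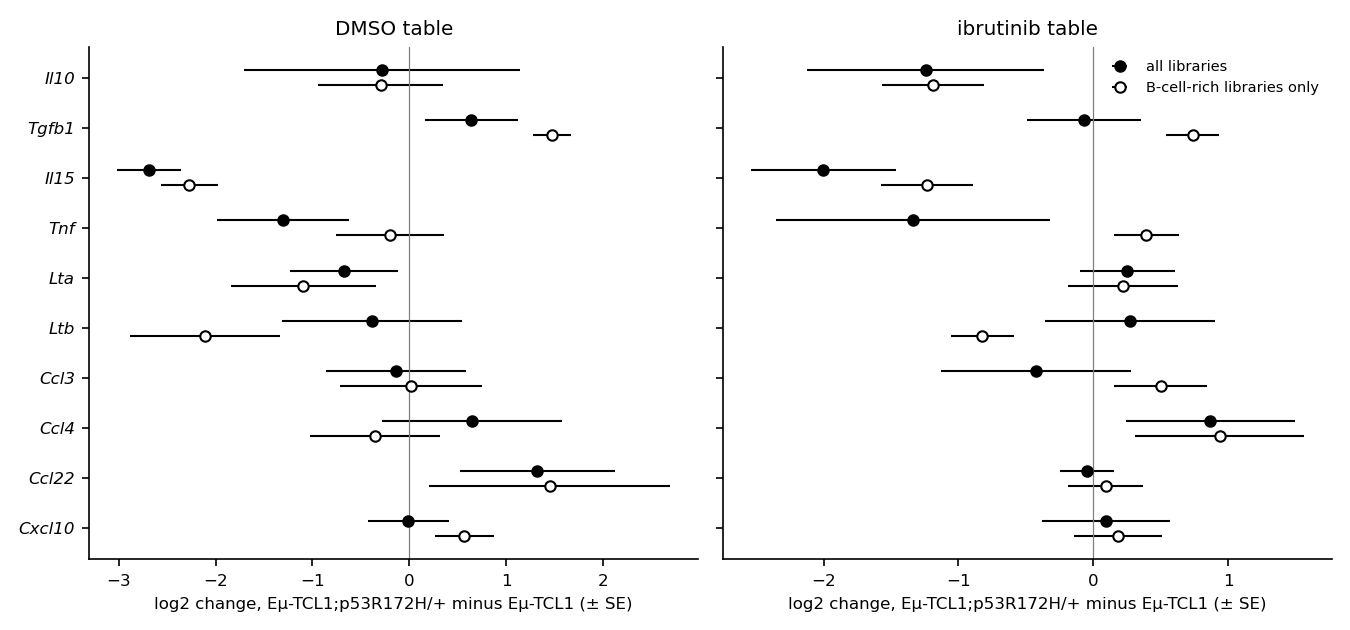
Log2 change (p53-mutant minus Eμ-TCL1, on log2(value + 1), with limma standard errors as bars) of the 10 genes in the DMSO and ibrutinib tables, over all libraries (filled) and over the libraries rich in B-cell transcripts only (open). Il15 and Il10 lie below 0 in all 4 estimates, while Tgfb1, Tnf and Ltb in both tables, Ccl4 in DMSO and Ccl3 in ibrutinib move by over 0.8 units when the libraries with few B-cell transcripts are left out.

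Tnf, Lta and Ltb are neighbors on chromosome 17 and encode members of the tumor necrosis factor family. TNF is the main inflammatory member, lymphotoxin alpha forms a secreted trimer that uses the TNF receptors, and lymphotoxin beta anchors lymphotoxin at the B-cell surface, where it acts on the lymphotoxin beta receptor of stromal cells. Sequence upstream of Ltb and Tnf is shown because these neighbors had different levels side by side in the 2 treatments. Bases come from RefSeq on GRCm38.p6, 5′ to 3′ along the gene's strand, and run from 250 bases before the annotated start up to the first base that GENCODE counts as transcribed, which is left out. In Ltb (chr17:35194257-35194438, plus strand) capitals mark a match to the nuclear factor kappa B letters GGGA, any 4 bases and CC, read on the opposite strand, and in Tnf (chr17:35202008-35202257, minus strand) they mark the TATA letters TATAAA.
Ltb: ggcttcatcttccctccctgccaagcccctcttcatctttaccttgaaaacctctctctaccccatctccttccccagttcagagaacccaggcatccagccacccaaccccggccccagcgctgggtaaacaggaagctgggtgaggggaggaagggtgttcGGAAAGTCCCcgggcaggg
Tnf: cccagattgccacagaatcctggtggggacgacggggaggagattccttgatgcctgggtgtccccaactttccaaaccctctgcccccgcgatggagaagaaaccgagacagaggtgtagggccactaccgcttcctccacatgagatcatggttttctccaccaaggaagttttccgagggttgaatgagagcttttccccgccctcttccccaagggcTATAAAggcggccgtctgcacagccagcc
The window of Ltb ends 69 bases before the RefSeq start, since GENCODE begins the gene earlier. Both strands were searched, and 17.6% of 32851 mouse promoters hold the first set of letters and 12.4% the second. The Ltb match also meets the narrower spelling GGGA, any 2 bases, TT, any base and C, found in 3.6% of promoters. Of the other members with an entry, Cxcl10, Ccl22 and Tgfb1 also held the first set of letters, Cxcl10 and Ccl22 also the narrower spelling, and Lta held TATAAA. These matches are descriptions of letters and say nothing of binding, and Il10, Il15 and Ccl4 have no entry in the table used.

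Tnf (ENSMUSG00000024401, chromosome 17 of GRCm38 from 35199381 to 35202007, minus strand) was 36.5, 10.7 and 27.7 in Eμ-TCL1 replicates 2, 3 and 4 in DMSO. In p53-mutant replicates 1 to 5 it was 2.7, 3.9, 20.4, 8.9 and 18.2. The genotypes overlapped, with a log2 change of -1.31 (SE 0.68, limma adjusted p = 0.642), and the 2 lowest values were those of the p53-mutant libraries with high T-cell markers. In ibrutinib Tnf was 42.3 in Eμ-TCL1 replicate 1 and 1.4 and 2.1 in replicates 3 and 4. In p53-mutant replicates 1, 3, 4 and 5 it was 0.2, 2.5, 2.3 and 2.9. The single high library was the one with neutrophil and monocyte markers. The log2 change was -1.34 (SE 1.02, limma adjusted p = 0.592) with it and -0.01 without it, so the size of the change rested on this library.

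Ltb (ENSMUSG00000024399, chromosome 17 of GRCm38 from 35194439 to 35196320, plus strand) had the highest median level per kilobase of exon of the 10 genes in both tables. In DMSO it was 46.2, 306.6 and 264.9 in Eμ-TCL1 replicates 2, 3 and 4. It was 280.1, 308.8, 92.5, 23.4 and 125.9 in p53-mutant replicates 1 to 5. The genotypes overlapped, with a log2 change of -0.38 (SE 0.93, limma adjusted p = 0.894), and high values stood both in libraries rich in B-cell transcripts and in those with high T-cell markers. In the former alone, the p53-mutant values (23.4 to 125.9) lay below the Eμ-TCL1 values (264.9 and 306.6), with a log2 change of -2.11 (SE 0.77, limma adjusted p = 0.282). In ibrutinib Ltb was 45.1, 274.2 and 258.6 in Eμ-TCL1 replicates 1, 3 and 4. It was 249.0, 183.7, 125.9 and 178.7 in p53-mutant replicates 1, 3, 4 and 5. The lowest value was in the library with neutrophil and monocyte markers, while in DMSO it was in p53-mutant replicate 4. The log2 change was 0.28 (SE 0.63, limma adjusted p = 0.866) over all libraries and -0.82 (SE 0.23, limma adjusted p = 0.324) in those rich in B-cell transcripts. As a percentage of Cd79b in the latter, Ltb was 36.9% and 31.0% in Eμ-TCL1 and 36.2% and 53.6% in p53-mutant libraries, so the genotypes overlapped. In DMSO this ratio was 22.0% and 22.8% against 3.87% to 16.0%.

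Ltbr, the receptor that Ltb acts on and a gene of stromal and myeloid cells, was 30.9 and 30.8 in the libraries with neutrophil and monocyte markers and at most 2.5 in the other 13. Lta (ENSMUSG00000024402, chromosome 17 of GRCm38 from 35203165 to 35205351, minus strand) stayed under 2 in 14 of 15 libraries. The exception was Eμ-TCL1 replicate 4 in DMSO, at 8.5. The log2 changes of Lta were -0.67 (SE 0.56, limma adjusted p = 0.685) in DMSO and 0.25 (SE 0.35, limma adjusted p = 0.762) in ibrutinib. Without the library at 8.5, the change in DMSO was 0.14.

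In the libraries rich in B-cell transcripts, the genotypes did not overlap for 3 of the 10 genes in DMSO (Il15, Ltb and Tgfb1) and for 5 of 10 in ibrutinib (these and Il10 and Tnf). This is a common outcome with so few libraries, since 32.7% of all genes did the same in DMSO and 42.7% in ibrutinib. In ibrutinib the Tnf values of these libraries were 1.4 and 2.1 in Eμ-TCL1 and 2.3 and 2.9 in p53-mutant libraries.

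Ccl3 (ENSMUSG00000000982, chromosome 11 of GRCm38 from 83647844 to 83649355, minus strand) and Ccl4 (ENSMUSG00000018930, the same chromosome from 83662584 to 83664683, plus strand) encode the inflammatory chemokines CCL3 and CCL4, which attract T-cells, NK cells and monocytes. Both were low. In DMSO Ccl3 was 8.1, 2.4 and 0.9 in Eμ-TCL1 replicates 2, 3 and 4. It was 2.5, 8.2, 0.6, 5.3 and 0.7 in p53-mutant replicates 1 to 5. The genotypes overlapped throughout, with a log2 change of -0.14 (SE 0.73, limma adjusted p = 0.958). In ibrutinib Ccl3 was 8.0 in Eμ-TCL1 replicate 1, which has neutrophil and monocyte markers, and between 0.3 and 1.7 in the other 6 libraries, and the log2 change was -0.43 (SE 0.71, limma adjusted p = 0.804).

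Ccl4 in DMSO was 3.7, 2.1 and 2.6 in Eμ-TCL1 replicates 2, 3 and 4. It was 14.9, 23.4, 0.6, 5.2 and 0.8 in p53-mutant replicates 1 to 5. The highest values stood in p53-mutant replicates 1 and 2, the libraries with the highest T-cell and NK-cell marker sums, and the other 3 p53-mutant libraries spanned the Eμ-TCL1 range. In ibrutinib Ccl4 was 4.8, 0.2 and 1.6 in Eμ-TCL1 replicates 1, 3 and 4. It was 7.1, 4.7, 4.2 and 1.2 in p53-mutant replicates 1, 3, 4 and 5, and the highest value was in the library with the highest T-cell marker sum. The log2 changes were 0.65 (SE 0.93, limma adjusted p = 0.817) and 0.87 (SE 0.63, limma adjusted p = 0.579), and in the libraries rich in B-cell transcripts they were -0.35 (SE 0.67) in DMSO and 0.94 (SE 0.63) in ibrutinib. The part of T-cells and NK cells in these levels was not tested.

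Ccl22 (ENSMUSG00000031779, chromosome 8 of GRCm38 from 94745590 to 94751699, plus strand) encodes a chemokine that attracts regulatory T-cells through CCR4. It was 0.6, 2.9 and 0.3 in Eμ-TCL1 replicates 2, 3 and 4 in DMSO. It was 2.0, 3.6, 2.0, 26.8 and 1.8 in p53-mutant replicates 1 to 5. Replicate 4 stood apart from every other library, and the log2 change was 1.32 (SE 0.80, limma adjusted p = 0.645) with it and 0.71 without it. In all 7 ibrutinib libraries Ccl22 was under 1, and its receptor Ccr4 was at most 1.6 in any library.

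Cxcl10 (ENSMUSG00000034855, chromosome 5 of GRCm38 from 92346638 to 92348889, minus strand) encodes an interferon-induced chemokine for CXCR3 on activated T-cells. It lay between 0.1 and 3.0 in DMSO and between 0.1 and 3.6 in ibrutinib. The log2 changes were -0.01 (SE 0.42, limma adjusted p = 0.995) and 0.09 (SE 0.48, limma adjusted p = 0.942). The gene overlaps Art3 in the annotation, and the strand setting of the read counting is not given, so the reads of the pair may not have been kept apart.

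The order of the 10 genes was read per kilobase of exon, the scale on which different genes can be compared. In DMSO the median over 8 libraries was 129 normalized CPM per kb for Ltb, 32.6 for Il10 and 18.5 for Tgfb1, with Tnf at 8.82, Ccl4 at 4.77 and Ccl3 at 3.20. The other 4, Ccl22 at 0.860, Il15 at 0.796, Lta at 0.723 and Cxcl10 at 0.355, had medians under 1. In ibrutinib the order of medians over 7 libraries was Ltb at 121, Tgfb1 at 11.03, Ccl4 at 6.36, Il10 at 5.65 and Tnf at 1.40, with the other 5 between 0.215 and 0.651. Il10 ranged from 1.98 to 106 per kb in DMSO and overlapped both of its neighbors in the order, and the ranges of the 4 genes with medians under 1 in DMSO all overlapped one another. In ibrutinib the range of Ccl22 (0.043 to 0.344) lay below that of Ccl3 (0.392 to 10.4). Ltb and Tgfb1 were near the top, at the 95.8 and 88.3 percentile of all genes in DMSO by their median values not divided by length, while Cxcl10 was at 22.2.

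**Figure D4:**
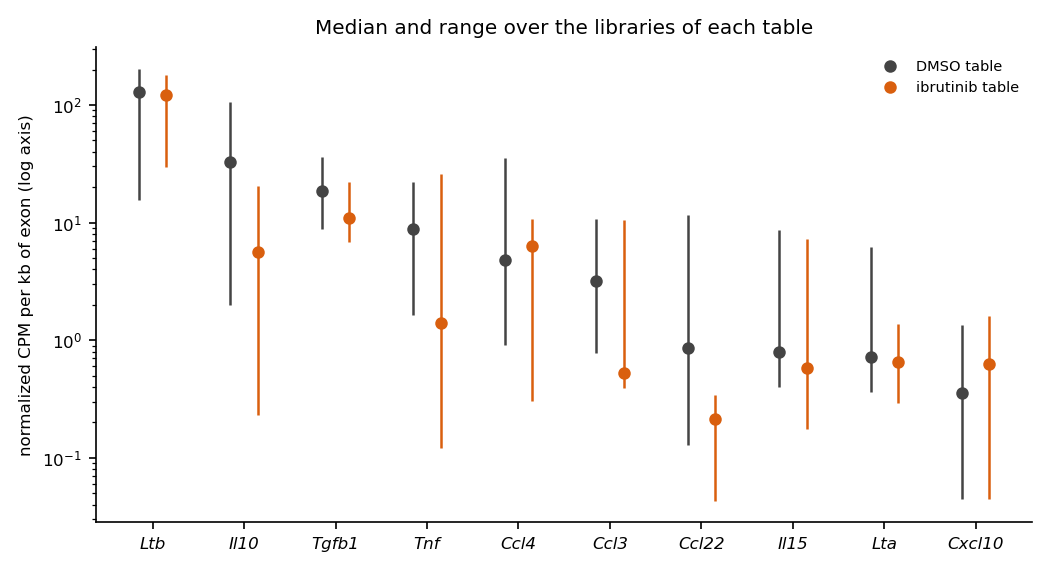
Normalized CPM per kilobase of exon (log axis) of the 10 genes in the DMSO table (8 libraries) and the ibrutinib table (7 libraries), with points at medians and lines over the whole range. Ltb lies highest in both tables, and Il10 and Tnf have lower medians in ibrutinib, at 5.65 and 1.40 per kb against 32.6 and 8.82.

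Levels in ibrutinib and in DMSO were set side by side without a test, because the authors scaled the tables separately. The 4 pairs used have the same genotype, replicate number and leading heavy-chain variable gene and are rich in B-cell transcripts in both tables: Eμ-TCL1 replicates 3 and 4 and p53-mutant replicates 4 and 5. Whether the libraries of a pair share a mouse is not given. Each difference in log2(value + 1) is given relative to the median of all genes in that pair, which lay between -0.25 and -0.19. Il10 and Tnf were at least 2 times lower in ibrutinib in all 4 pairs, as were 1.68% of the 15869 genes in both tables.

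Il10 was 57.9 in DMSO and 13.9 in ibrutinib in Eμ-TCL1 replicate 3, and 104.9 and 26.8 in replicate 4. In p53-mutant replicate 4 it was 138.7 and 8.5, and in replicate 5 it was 44.7 and 7.4. The relative log2 differences ran from -3.64 to -1.73 with a median of -1.97, and 0.447% of all genes had a lower median. The difference was larger in p53-mutant replicates 4 and 5 (-3.64 and -2.20) than in Eμ-TCL1 replicates 3 and 4 (-1.73 and -1.74). The interaction of Il10 over all 15 libraries was -0.96 with a limma adjusted p of 1, and 0.52 without Eμ-TCL1 replicate 2 in DMSO. As a percentage of Cd79b, which is free of the table's scaling, Il10 went from 4.16% to 1.87% and from 9.02% to 3.21% in Eμ-TCL1 replicates 3 and 4. It went from 23.0% to 2.44% and from 5.66% to 2.22% in p53-mutant replicates 4 and 5. The DMSO and ibrutinib ranges of the 4 pairs did not overlap. By this ratio the fold difference in p53-mutant replicate 5 was smaller than that in Eμ-TCL1 replicate 4. The larger difference in p53-mutant pairs thus rested on replicate 4. Against Pax5, a B-cell transcription factor, Il10 was also lower in ibrutinib in each of the 4 pairs, with p53-mutant replicate 4 going from 111% to 19.8% and Eμ-TCL1 replicate 4 from 77.4% to 34.9%. Here the ranges over pairs overlapped, since 34.9% lies above the DMSO ratios of Eμ-TCL1 replicate 3 (30.4%) and p53-mutant replicate 5 (28.9%).

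Tnf was 10.7 in DMSO and 1.4 in ibrutinib in Eμ-TCL1 replicate 3, and 27.7 and 2.1 in replicate 4. In p53-mutant replicate 4 it was 8.9 and 2.3, and in replicate 5 it was 18.2 and 2.9. The relative differences ran from -3.02 to -1.35 with a median of -2.04, and 0.391% of all genes had a lower median. As a percentage of Cd79b, Tnf went from 0.768% to 0.189% and from 2.38% to 0.251% in Eμ-TCL1 replicates 3 and 4. It went from 1.47% to 0.661% and from 2.31% to 0.870% in p53-mutant replicates 4 and 5. In Eμ-TCL1 replicate 2 in DMSO and replicate 1 in ibrutinib, which have neutrophil and monocyte markers and the same leading heavy-chain gene, Tnf was 36.5 and 42.3.

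Tgfb1, Il15, Ccl3 and Ccl22 were also lower in ibrutinib in 4 of 4 pairs, with median relative differences of -0.68, -0.76, -0.64 and -0.76, and between 10.9% and 14.3% of all genes had a lower median than these. Against genes of B-cells these 4 did not all keep that direction, as Tgfb1 went from 31.8% to 32.0% and from 39.3% to 47.6% of Pax5 in Eμ-TCL1 replicates 3 and 4, and from 138% to 156% and from 118% to 129% in p53-mutant replicates 4 and 5. Il15 went from 6.61% to 2.53% and from 7.08% to 3.51% of Pax5 in the Eμ-TCL1 pairs, and from 1.76% to 3.02% and from 0.646% to 0.687% in the p53-mutant pairs. The B-cell marker sum itself was lower in ibrutinib in each pair, at 6209 and 3492, 4701 and 2713, 4588 and 1529, and 3633 and 1388 in the same order. Ltb, the neighbor of Tnf whose upstream sequence is given above, differed from it. The relative difference of Ltb was above 0 in all 4 pairs, from 0.09 to 2.62 with a median of 0.45, and 80.7% of all genes had a lower median. In absolute values Ltb went from 306.6 to 274.2 and from 264.9 to 258.6 in Eμ-TCL1 replicates 3 and 4. It went from 23.4 to 125.9 and from 125.9 to 178.7 in p53-mutant replicates 4 and 5. Cxcl10 was likewise above 0 in 4 of 4 pairs (median 0.61, with 86.8% of all genes lower) at values under 2, Lta in 2 of 4 and Ccl4 in 1 of 4. The share of all genes with the same direction in all 4 pairs was not counted. The T-cell marker sums of p53-mutant replicates 4 and 5 were 202 and 231 in DMSO and 684 and 913 in ibrutinib, and their part in the Ltb difference was not tested.

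**Figure D5:**
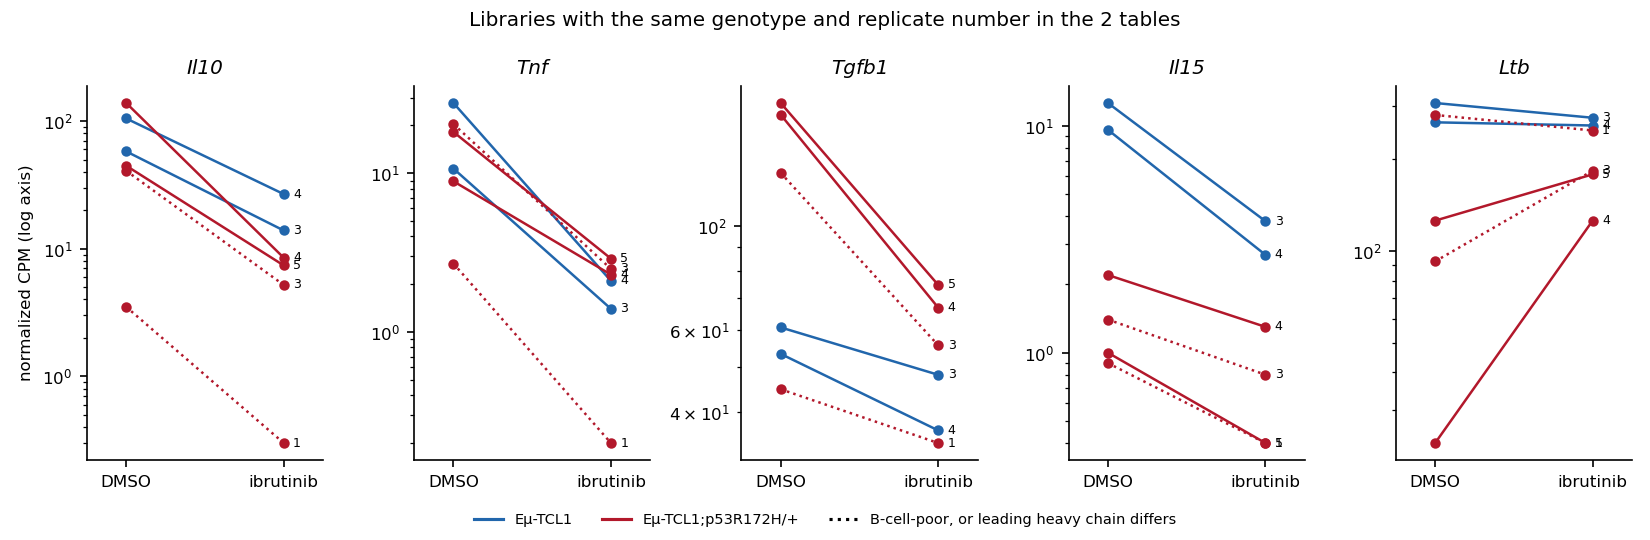
Normalized CPM (log axis, a separate scale for each gene) in DMSO and ibrutinib of Il10, Tnf, Tgfb1, Il15 and Ltb, with lines joining libraries of the same genotype and replicate number. Solid lines are the 4 pairs used, and dotted lines are pairs with few B-cell transcripts or another leading heavy-chain gene. Il10 and Tnf lie lower in ibrutinib on every line, and Ltb lies higher on the lines of p53-mutant replicates 3, 4 and 5. The line of p53-mutant replicate 3 joins libraries that differ in Xist and in leading heavy-chain gene.

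Of the 16 receptors of these molecules, 15 were in the DMSO table, where none passed the adjusted threshold and 1 had an unadjusted p under 0.05. In ibrutinib 16 were listed, none passed, and 3 had an unadjusted p under 0.05, of which 2 were higher and 1 lower, against 8.17% of all genes in DMSO and 12.0% in ibrutinib. Cxcr3, the receptor of CXCL10 on T-cells, averaged 64.5 in p53-mutant and 14.1 in Eμ-TCL1 libraries in ibrutinib (log2 change 1.99, SE 0.67, limma adjusted p = 0.341). Its highest values, 140.0 and 61.0, were in p53-mutant replicates 1 and 3, the libraries with the highest T-cell marker sums. Ccr1, a receptor of CCL3, averaged 1.73 in p53-mutant and 18.7 in Eμ-TCL1 libraries (log2 change -2.31, SE 0.82, limma adjusted p = 0.348). It was 46.1 in Eμ-TCL1 replicate 1, and 4.4 and 5.7 in replicates 3 and 4. In DMSO Ccr1 was 84.9, 65.0 and 57.8 in Eμ-TCL1 replicates 2, 3 and 4 and 62.0 in p53-mutant replicate 4, against 4.8 to 7.4 in the other p53-mutant libraries, so its high values were not limited to the library with neutrophil markers.

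A wider list of 80 other cytokine and chemokine genes had 45 members in the DMSO table and 43 in the ibrutinib table. None passed the adjusted threshold, and unadjusted p-values under 0.05 were found for 1 in DMSO and 3 in ibrutinib, smaller shares than the 8.17% and 12.0% of all genes. Tnfsf4, which encodes OX40 ligand, averaged 4.18 in p53-mutant and 0.700 in Eμ-TCL1 libraries in ibrutinib (log2 change 1.58, SE 0.24, limma adjusted p = 0.165). Ebi3, a subunit of interleukin-27 and interleukin-35, averaged 3.35 and 24.2 (log2 change -2.64, SE 0.59, limma adjusted p = 0.222). Il12a, a subunit of interleukin-12 and interleukin-35, averaged 1.55 and 7.17 (log2 change -1.91, SE 0.58, limma adjusted p = 0.316). The highest means of this list, which are not divided by length and so give no order of transcript levels, belonged to Il16, Ccl5 and Tnfsf8 in both tables, at 364, 210 and 84.5 in DMSO. Ccl5, a chemokine of activated T-cells and NK cells, was 629 and 868 in p53-mutant replicates 1 and 2 in DMSO and 418 and 125 in replicates 1 and 3 in ibrutinib, the libraries with high T-cell markers, and 14.1 to 72.3 elsewhere.

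The genes whose log2 values most resembled each member across the 15 libraries were sought among 10119 genes with a mean of at least 5. Each gene was first centered on its mean within each table, so a mean difference between DMSO and ibrutinib does not enter r. The likeness is a description, since libraries share cell content and tables share a scaling. Il10 was most like Rap1gap (r = 0.979) and Bend5 (r = 0.969). Tgfb1 was most like Egr1 (r = 0.934), an early gene of receptor signaling, and Man1c1 (r = 0.929). Il15 was most like Fam214b (r = 0.970) and 4930506M07Rik (r = 0.944), Tnf like Cdca7 (r = 0.945) and Zak (r = 0.929), and Ltb like Shisa5 (r = 0.972) and Ezh1 (r = 0.948). For Ccl3 the genes were Ndel1 (r = 0.907) and Srpk2 (r = 0.897), for Ccl4 Fxyd5 (r = 0.929) and Impdh1 (r = 0.928), and for Cxcl10 Arhgap31 (r = 0.818) and Arl8a (r = 0.808). The likeness of Ccl22 to Ece1 (r = 0.850) and Kif3c (r = 0.837) rested on p53-mutant replicate 4 in DMSO, without which r was 0.589 and 0.565. That of Lta to Ly6k (r = 0.803) and Tuba1a (r = 0.757) was 0.50 and 0.661 without Eμ-TCL1 replicate 4 in DMSO.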

How the data were processed

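RNA of 15 libraries was measured in 2 tables, 1 per treatment. Per the labels and methods, the authors aligned reads with TopHat2 2.0.12 and SAMtools 0.1.19, counted them per gene with HTSeq (GENCODE M2, GRCm38/mm10). The authors then dropped genes below 0.5 CPM and scaled libraries with edgeR. The values as deposited are a signal: CPM on an effective library size, set by the authors for each table on its own, with a rounding step of 0.1. Column sums ran from 756625 to 1359650. Whole reads could not be recovered, and without a known depth there are no counting errors.

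Genotypes were compared within a table, and the interaction over both, by limma (version 3.58.1, under R 4.3.3, with lmFit and a trended eBayes) on log2(value + 1), and p-values were adjusted over all genes by the Benjamini-Hochberg method at 0.05. Treatments were only set side by side. Members and lists were chosen with earlier results of these data known. Beyond the 10 members, the genes named were receptors and other cytokines with an unadjusted p under 0.05 and groups that did not overlap (at most 6 per list and table), the 3 highest means of the wider list, the 2 genes most like each member, and marker genes. Receptors of a member were named beside it after their values were seen. Positions and exon lengths come from GENCODE M21 on GRCm38. Alternatives were a replicate block, limma sample quality weights, quantile normalization, pseudocounts of 0.1 and 5, genes with a mean of 5 or more, and leaving out each library. Leaving out libraries with few B-cell transcripts, and averaging libraries with the same leading heavy-chain genes, were chosen after seeing the data. The averaging joined p53-mutant replicates 1 and 2, and 3 and 5, in DMSO. Eμ-TCL1 replicates 3 and 4, which share Ighv1-55 as the first gene, were kept apart. No ibrutinib libraries were averaged. The limma steps were tested on simulated data. Figures used matplotlib 3.10.9.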

Additional observations from a re-analysis of the deposited data

Results flagged for a closer look

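Within groups of 4 or 5 libraries, each member's highest and lowest values were compared with the rest by Dixon's ratio at its 95% critical value. Of 20 groups tested, 1 held a library that stood far from the others: Ccl22 was 26.8 in Eμ-TCL1;p53R172H/+ replicate 4 in DMSO, against 1.8 to 3.6 in the other 4 libraries of that group. Chance gives such a result in about 1 of 20 groups. The same library had the highest Il10 (138.7), the lowest Ltb (23.4) and the highest plasma-cell marker sum (1490), and in ibrutinib the library of the same number had Ccl22 at 0.5.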

How the results depend on the processing

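Counts of genes past the threshold moved with the processing. Between genotypes in DMSO, 2 genes passed over all 16470. The count was 6 with a pseudocount of 5, 803 with sample quality weights (299 higher and 504 lower) and 12 without libraries with few B-cell transcripts. It was 0 with the p53-mutant libraries of the same leading heavy-chain genes averaged and Eμ-TCL1 replicates 3 and 4 kept apart. The count ran from 0 to 61 when 1 library was left out. It was 61 without Eμ-TCL1 replicate 2, 5 without p53-mutant replicate 4 and 0 without Eμ-TCL1 replicate 3. In ibrutinib it was 0, with 28 under sample quality weights and 0 to 24 when 1 library was left out (24 without Eμ-TCL1 replicate 1 and 5 without p53-mutant replicate 5). The interaction gave 0 in each setting, and 0 to 0 when 1 library was left out. Replicate numbers shared by the genotypes did not pair the libraries: correlations of their deviations were 0.166, 0.246 and 0.053 in DMSO and -0.052, -0.16 and -0.166 in ibrutinib. With a replicate block the count was 0 in DMSO, ibrutinib and the interaction, with 970, 1490 and 313 genes at an unadjusted p under 0.05. The interaction of Il10 was among the latter under the block (-1.30, SE 0.54, limma unadjusted p = 0.0398, adjusted p = 1.0), where it was -0.96 with an SE of 1.86 without it, and that of Tgfb1 was among 1084 such genes without libraries with few B-cell transcripts (-0.74, SE 0.29, limma unadjusted p = 0.0401, adjusted p = 0.694).

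Of 515 combinations of a member, a comparison and a setting, 75 reversed direction and 3 came to pass the threshold: Il15 in DMSO with sample quality weights (-2.31, limma adjusted p = 0.00177) and without Eμ-TCL1 replicate 2 (-2.43, limma adjusted p = 0.0304), and Tgfb1 in DMSO with sample quality weights (1.26, limma adjusted p = 0.0415). With averaged libraries Il15 in DMSO was -2.60 (SE 0.42, limma adjusted p = 0.901). Among the 30 member results, 12 never reversed, Il15 in both tables included, whose change ran from -2.91 to -2.43 in DMSO and from -2.44 to -1.32 in ibrutinib when 1 library was left out. Its size moved more with the pseudocount, from -3.37 (0.1) to -1.56 (5) in DMSO and from -2.91 to -0.99 in ibrutinib. The cause of the reversals was not tested. Reversed log2 changes in DMSO were 0.18 (block) and 0.15 (averaged) for Il10, 0.063 (weights), 0.22 (block), 0.021 (few B-cell transcripts left out) and 0.056 (averaged) for Ccl3, -0.31 (weights) and -0.35 (few B-cell transcripts left out) for Ccl4, and 0.38 (pseudocount 0.1), 0.24 (quantile), 0.52 (weights) and 0.57 (few B-cell transcripts left out) for Cxcl10. In ibrutinib they were 0.048 (quantile), 0.44 (weights) and 0.74 (few B-cell transcripts left out) for Tgfb1, 0.40 (few B-cell transcripts left out) for Tnf, -0.49 (weights) and -0.82 (few B-cell transcripts left out) for Ltb, 0.49 and 0.50 in the same settings for Ccl3, 0.047 (pseudocount 0.1), 0.028 (quantile), 0.078 (weights) and 0.092 (few B-cell transcripts left out) for Ccl22, and -0.10 (pseudocount 0.1) for Cxcl10. For the interaction they were 0.067 (pseudocount 5), 0.027 (quantile), 0.58 (weights) and 0.59 (few B-cell transcripts left out) for Tnf, 0.39 (weights) and 0.48 (few B-cell transcripts left out) for Ccl3, -0.17 (pseudocount 5) for Ccl4, and -0.48 (pseudocount 0.1), -0.049 (quantile), -0.11 (block) and -0.38 (few B-cell transcripts left out) for Cxcl10.

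With 1 library left out, changes that crossed 0 ran in DMSO from -1.77 to 0.67 for Il10, -1.14 to 0.14 for Lta, -1.25 to 0.19 for Ltb, -0.65 to 0.48 for Ccl3 and -0.38 to 0.56 for Cxcl10. In ibrutinib they ran from -0.40 to 0.40 for Tgfb1, -0.57 to 0.72 for Ltb, -0.91 to 0.49 for Ccl3, -0.25 to 0.10 for Ccl22 and -0.25 to 0.44 for Cxcl10. For the interaction they ran from -1.92 to 0.52 for Il10, -0.79 to 1.3 for Tnf, -0.19 to 1.53 for Ltb, -0.90 to 0.62 for Ccl3, -0.34 to 0.79 for Ccl4 and -0.46 to 0.47 for Cxcl10. Members with a mean under 5 have no value under that filter. Values near 1, such as those of Cxcl10, Lta and Ccl22, carry few reads whose number is unknown, so differences there could not be resolved.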
